A study of Mus musculus with 16 samples.

Results

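The accessible chromatin of 8 genes of the lactogen, serotonin and GABA systems was examined in mouse pancreatic islets: the receptor genes Prlr and Ghr, the serotonin genes Tph1, Tph2, Ddc and Slc18a2, and the GABA genes Gad1 and Gad2. Peaks of 16 ATAC-seq samples on chromosomes 1 to 19 were merged where they touched or overlapped, which gave 347712 regions. A region belonged to a gene if it overlapped the gene body or the 3 kb upstream of it in the GENCODE annotation of mm10, and 259 regions did. In ATAC-seq a transposase inserts adapters into open DNA, so accessible sites gather reads. The islets came from 8 inbred strains, named here 129 (129S1_SvImJ), AJ (A_J), B6 (C57BL/6J), NOD (NOD_ShiLtJ), NZO (NZO_HlLtJ), CAST (CAST_EiJ), PWK (PWK_PhJ) and WSB (WSB_EiJ), with 1 female and 1 male sample each and no treatment given in the labels. The text of the study treats the first 5 as classical and the last 3 as wild-derived strains. The female and the male are the only replicates of a strain. The p-values for strain and sex rest on the spread between them beyond a shared sex difference, pooled over the 8 strains. Those for strain class rest on the spread between the strain means within a class.

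Prolactin and placental lactogen act on beta cells through the prolactin receptor Prlr, and growth hormone acts through its own receptor Ghr. Both receptors signal through the kinase JAK2 and the transcription factor STAT5, and in pregnancy this pathway raises serotonin synthesis in beta cells. Serotonin is made from tryptophan by a tryptophan hydroxylase, Tph1 in most peripheral tissues and Tph2 in neurons, and then by the decarboxylase Ddc, and Slc18a2 (VMAT2) loads it into vesicles. Gad1 and Gad2 encode the enzymes GAD67 and GAD65, which make GABA from glutamate. Beta cells contain GABA, and GAD65 is an autoantigen in type 1 diabetes.

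Sequences are shown first for the gene starts that set these genes apart. RefSeq places 1 start of Tph1 at the start of the gene, where no sample had a peak, and another 5.16 kb inside it, where all 16 samples had one. The starts of Tph2 and Slc18a2 are given beside them because the former lay in a strong region of every sample and the latter in none. The second Prlr start is given because its upstream sequence held 3 of the motifs searched. Each line is the 250 bases before a RefSeq start, 5′ to 3′ on the strand of the gene, from the mm10 reference (GRCm38.p6, strain C57BL/6J). Capitals mark matches to the motifs named after the lines.
Tph1 at the gene start, chr7:46672538-46672787, minus strand: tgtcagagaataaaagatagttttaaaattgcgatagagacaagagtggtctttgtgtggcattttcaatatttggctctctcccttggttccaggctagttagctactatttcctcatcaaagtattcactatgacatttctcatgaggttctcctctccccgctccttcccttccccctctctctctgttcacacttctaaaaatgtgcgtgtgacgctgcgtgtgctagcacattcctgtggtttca
Tph1 at the inner start, chr7:46667378-46667627, minus strand: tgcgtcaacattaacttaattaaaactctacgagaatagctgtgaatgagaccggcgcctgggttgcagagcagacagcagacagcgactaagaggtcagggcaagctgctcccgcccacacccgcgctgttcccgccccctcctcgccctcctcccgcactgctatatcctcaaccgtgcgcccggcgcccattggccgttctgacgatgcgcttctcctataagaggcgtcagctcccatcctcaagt
Tph2, chr10:115185023-115185272, minus strand: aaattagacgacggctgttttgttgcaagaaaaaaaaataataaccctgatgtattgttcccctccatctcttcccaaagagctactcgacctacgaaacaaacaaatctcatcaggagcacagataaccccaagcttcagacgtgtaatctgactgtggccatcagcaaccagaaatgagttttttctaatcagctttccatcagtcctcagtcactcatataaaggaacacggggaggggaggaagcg
Slc18a2, chr19:59260628-59260877, plus strand: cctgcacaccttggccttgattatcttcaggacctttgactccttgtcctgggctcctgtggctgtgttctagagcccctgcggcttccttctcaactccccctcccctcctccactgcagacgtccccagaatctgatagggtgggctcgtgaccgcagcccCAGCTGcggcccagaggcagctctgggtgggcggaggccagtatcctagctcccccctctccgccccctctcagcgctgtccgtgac
Prlr at the second start, chr15:10223656-10223905, plus strand: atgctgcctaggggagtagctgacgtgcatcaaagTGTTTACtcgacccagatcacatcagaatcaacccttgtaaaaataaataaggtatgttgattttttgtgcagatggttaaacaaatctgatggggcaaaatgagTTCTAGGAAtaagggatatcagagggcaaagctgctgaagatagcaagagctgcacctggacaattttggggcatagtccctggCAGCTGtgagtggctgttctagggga

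The letters of 5 motifs were searched on both strands: TTCNNNGAA (STAT5), TGTTTAC (forkhead factors), TGACGTCA (cyclic AMP response element), GGGGCGGGG (SP and KLF factors) and CAGCTG (an E-box). The inner Tph1 sequence was 58.8% G and C with 19 CpG dinucleotides, against 43.6% and 5 CpG at the gene start. The Slc18a2 sequence was 64.0% G and C with 9 CpG, and the start had no listed region. The second Prlr start held 1 STAT5, 1 forkhead and 1 E-box match, and these occurred in 7.02%, 3.17% and 13.0% of the 250 bases upstream of 32851 RefSeq starts. A match is a string of letters and not a shown binding site.

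The other results turn mostly on 5 inner regions, and 300 bases around the median summit of each are shown. They are the strongest Prlr, Tph2 and Gad1 regions, the Ddc region around an inner transcript start, which differed between strains, and a Gad2 region listed in CAST alone. All are mm10 sequence on the strand of the gene, so the Gad2 line is the C57BL/6J sequence and not that of CAST.
Prlr 23.9 kb, chr15:10200955-10201254, plus strand: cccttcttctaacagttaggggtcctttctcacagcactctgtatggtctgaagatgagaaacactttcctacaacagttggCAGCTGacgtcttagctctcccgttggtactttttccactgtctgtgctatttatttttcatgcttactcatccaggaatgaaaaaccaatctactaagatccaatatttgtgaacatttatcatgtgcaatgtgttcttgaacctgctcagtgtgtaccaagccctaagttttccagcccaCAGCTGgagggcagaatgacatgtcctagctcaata
Tph2 9.32 kb, chr10:115175557-115175856, minus strand: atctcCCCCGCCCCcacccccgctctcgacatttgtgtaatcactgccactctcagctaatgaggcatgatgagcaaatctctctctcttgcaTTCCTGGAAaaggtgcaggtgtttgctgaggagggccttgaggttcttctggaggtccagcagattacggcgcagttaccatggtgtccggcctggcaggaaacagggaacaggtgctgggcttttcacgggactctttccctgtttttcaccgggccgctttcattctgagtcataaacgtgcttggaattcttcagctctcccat
Ddc 9.88 kb, chr11:11888117-11888416, minus strand: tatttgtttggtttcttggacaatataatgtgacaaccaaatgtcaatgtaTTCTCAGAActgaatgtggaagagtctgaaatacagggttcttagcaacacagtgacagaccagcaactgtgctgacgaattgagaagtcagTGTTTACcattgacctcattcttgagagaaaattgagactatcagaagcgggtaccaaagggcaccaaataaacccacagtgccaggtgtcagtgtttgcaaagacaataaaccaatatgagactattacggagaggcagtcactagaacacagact
Gad1 39.5 kb, chr2:70592466-70592765, plus strand: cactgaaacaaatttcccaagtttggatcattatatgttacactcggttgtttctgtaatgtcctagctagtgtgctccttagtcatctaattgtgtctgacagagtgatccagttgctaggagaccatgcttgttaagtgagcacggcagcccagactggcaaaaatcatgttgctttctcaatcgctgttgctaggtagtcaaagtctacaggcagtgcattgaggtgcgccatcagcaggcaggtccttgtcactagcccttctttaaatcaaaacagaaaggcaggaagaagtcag
Gad2 32.2 kb, chr2:22654303-22654602, plus strand: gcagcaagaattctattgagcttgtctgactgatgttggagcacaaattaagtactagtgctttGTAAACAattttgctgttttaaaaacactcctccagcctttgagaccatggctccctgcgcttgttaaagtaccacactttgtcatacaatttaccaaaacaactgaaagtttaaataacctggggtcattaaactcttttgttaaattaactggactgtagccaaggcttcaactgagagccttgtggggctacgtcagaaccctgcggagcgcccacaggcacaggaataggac

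Here and below, the kb value is the distance of the median summit from the GENCODE gene start in the direction of transcription. The Ddc sequence held 1 STAT5 and 1 forkhead match, the Tph2 sequence 1 STAT5 and 1 SP match, the Gad2 sequence 1 forkhead match and the Prlr sequence 2 E-boxes. The Gad1 sequence held none of the 5 motifs. Over all 40940 regions listed in all 16 samples, the same window held STAT5 letters in 9.28%, forkhead in 8.12%, SP in 6.32% and E-box in 21.8%.

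Peak height was taken as the summit signal in the lists, a whole number. Relative signal is this height divided by the median of the sample over the 40940 shared regions, so 1 is the level of a typical shared region. Where a sample had no listed peak its value is 0, which places the site under the calling threshold and does not show closed DNA. Autosomal peaks numbered between 77887 (AJ male) and 167051 (WSB female) per list, and the scaling median lay between 32 (PWK male) and 136 (CAST male). Read totals per sample were not analysed here, and no interval that needs counts is given. In islets as a whole, fewer cells of a type and less accessibility per cell cannot be told apart.

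The promoter regions of marker genes were checked against the tissue. Of 8 beta cell markers, 6 had a region in all 16 samples, and their summed relative signal ran from 11.1 to 15.6. Ins2 and G6pc2 had no region there. None of 6 acinar and none of 6 leukocyte markers was listed in all samples, and their sums ran from 0.362 to 1.35 and from 0 to 2.62, both highest in the NZO male. For endothelial markers the sum ran from 0.512 to 1.15 with 1 of 5 listed throughout, and for duct markers from 2.17 to 4.16 with 3 of 5. Among alpha cell markers 2 of 5 were listed throughout, with sums of 5.35 to 7.72, and among delta cell markers 1 of 2, with sums of 0.0909 to 0.489. Among neural and Schwann markers 1 of 5 was listed throughout, Sox10 had no region, and the sum ran from 1.00 in the AJ female to 2.84 in the 129 female. The part of cell composition in the results below was not tested.

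The 8 genes differed widely in how many regions they held. Prlr had 88 regions in 172 kb and Ghr 75 in 266 kb, followed by Ddc with 35, Tph2 with 25, Gad1 with 16, Gad2 with 12, Tph1 with 5 and Slc18a2 with 3. Of all 259, 206 lay in introns, 43 (16.6%) were listed in all 16 samples and 81 (31.3%) in a single sample. Over all regions the corresponding shares were 11.8% and 46.4%. Shared regions were densest in Ddc, with 11.5 per 100 kb, then in Gad1 with 7.70, Prlr with 6.29 and Tph2 with 5.49. Ghr had 3.35, Tph1 3.24, Slc18a2 2.62 and Gad2 1.34 per 100 kb. In the strain lists, which keep peaks repeated between the female and the male at an irreproducible discovery rate of 0.05, 73 of the 259 regions had a peak in at least 1 strain and 17 in all 8. The matching shares over all regions are not given here, so these counts have no background to be read against.

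**Figure D1:**
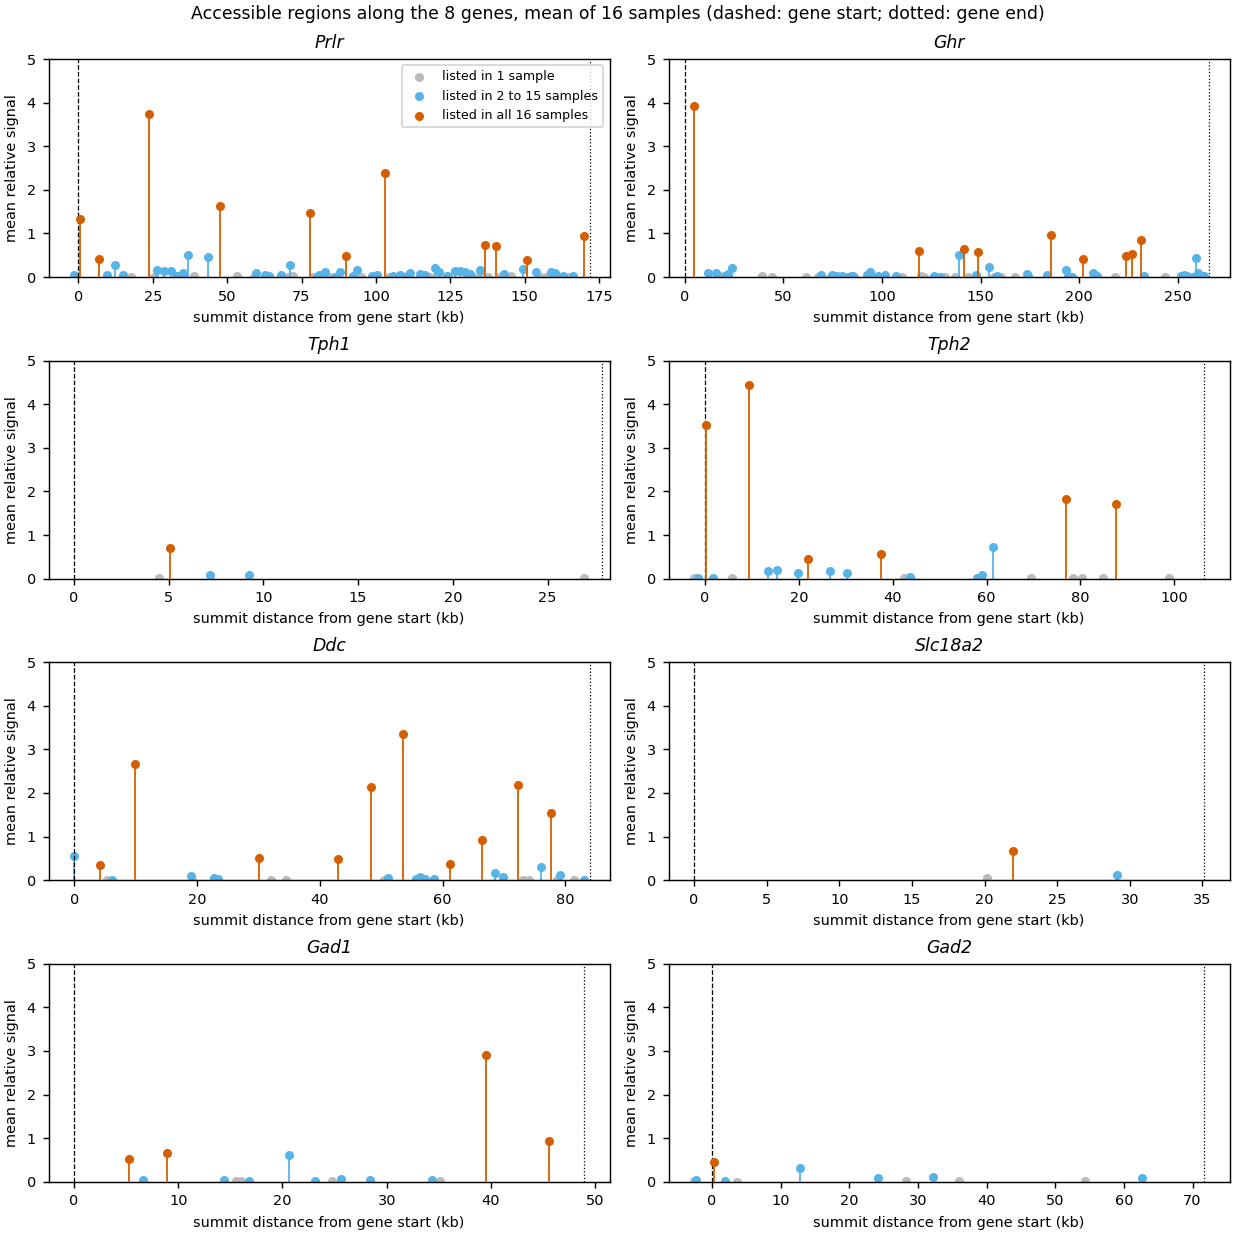
Mean relative signal over 16 samples (vertical axis, unitless) of each region against the distance of its summit from the gene start in kb (horizontal axis), 1 panel per gene, coloured by the number of samples that listed it. Tph2 and Ghr have a region above 3.5 close to their starts, Prlr and Gad1 have their strongest region inside the gene, and Tph1, Slc18a2 and Gad2 have no region above 1.

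For the lactogen receptor genes, the strongest sites sat at the start of Ghr and inside Prlr. The region over the Ghr start (chr15:3578232-3584643) had a mean relative signal of 3.92, between 3.07 and 5.06 over the 16 samples, and covered both RefSeq starts of the gene. It was 6.41 kb wide, and the position of the highest summit in it ranged over 4.69 kb between samples, so samples were not always compared at the same summit. The female and male values were 3.55 and 3.80 in 129, 3.92 and 3.75 in AJ, 3.11 and 3.07 in B6, 3.47 and 3.11 in NOD, 4.32 and 4.35 in NZO, 4.50 and 4.29 in CAST, 5.06 and 3.12 in PWK, and 4.74 and 4.50 in WSB. B6 was lowest and WSB highest by strain mean, a ratio of 1.49, but the PWK female and male lay further apart than these means. In the limma F test over strains, fitted on all shared regions with Benjamini-Hochberg adjustment, the adjusted p was 0.325.

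The Prlr gene start (chr15:10176400-10181027) was weaker, with relative signal from 0.927 to 1.74 and a mean of 1.34 (adjusted p over strains 0.503). The second RefSeq start of Prlr, 46.7 kb inside the gene, lay in a region with a mean of 1.63 (1.09 to 2.14, adjusted p 0.710). The third, at 116 kb, lay in a region that 3 samples listed. The strongest Prlr region lay in an intron 23.9 kb from the start (chr15:10199319-10201689), with a mean of 3.74, above 74.1% of the 11117 protein-coding genes whose promoter region was listed in all samples. Its female and male values were 2.53 and 3.68 in 129, 3.97 and 3.71 in AJ, 4.39 and 6.14 in B6, 3.23 and 3.32 in NOD, 3.78 and 1.49 in NZO, 4.59 and 4.61 in CAST, 2.61 and 2.28 in PWK, and 4.66 and 4.78 in WSB. B6, WSB and CAST were high and PWK low, while the NZO female and male lay further apart than those of any other strain. The adjusted p over strains was 0.0887, and it was 0.00281 without the NZO female and 0.0235 without the NZO male. A further intron region at 103 kb (chr15:10279642-10280799) had a mean of 2.38, lowest in the PWK male at 1.09 and highest in the AJ female at 4.54 (adjusted p 0.0813, 0.0257 without the NZO female and 0.0432 without the NZO male). Where 1 sample of a strain is left out, the fit assumes that the remaining one varies like the other strains.

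Of the 11 shared Prlr regions, 0 passed the strain test and 4 had an unadjusted p under 0.05. Over all 40940 shared regions, 35.7% passed and 51.3% had an unadjusted p under 0.05. The Prlr regions at 23.9 and 103 kb passed with an intensity trend (limma adjusted p 0.0339 and 0.0383) and with no centring (0.0123 and 0.0284). Without centring the sample medians are left uncorrected, and 63.2% of all shared regions passed. That share applies to each result with no centring below. Of the 9 shared Ghr regions, 2 passed, both in introns far from the start. In the one at 149 kb (chr15:3433049-3434974) the female and male values were 1.47 and 0.938 in PWK, 0.660 and 0.648 in WSB, 0.566 and 0.728 in CAST, 0.723 and 0.455 in AJ, 0.568 and 0.291 in NZO, 0.333 and 0.458 in B6, 0.328 and 0.275 in 129, and 0.360 and 0.232 in NOD. Both PWK values were above all others, and the WSB and CAST means came next, though the ranges of CAST and AJ overlapped. The adjusted p over strains was 0.00602, and PWK exceeded the mean of the other 7 strains by 1.38 ± 0.25 (log2, SE, limma adjusted p 0.00314, 0.0821 without the PWK female). In the other, at 186 kb (chr15:3395748-3398080), 129 was lowest with 0.467 ± 0.22 (SD, n = 2) and WSB highest with 1.40 ± 0.014 (adjusted p over strains 0.0135, and 0.0656 when regions listed in 12 or more samples were fitted). There 129 was lower than the other strains by 1.14 ± 0.25 on the log2 scale (a log2 difference of -1.14, adjusted p 0.0314). This contrast lost its call in 7 of the 16 fits with a sample left out (either sample of NOD, CAST or WSB, or the 129 female), the adjusted p reaching 0.554 without the 129 female.

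**Figure D2:**
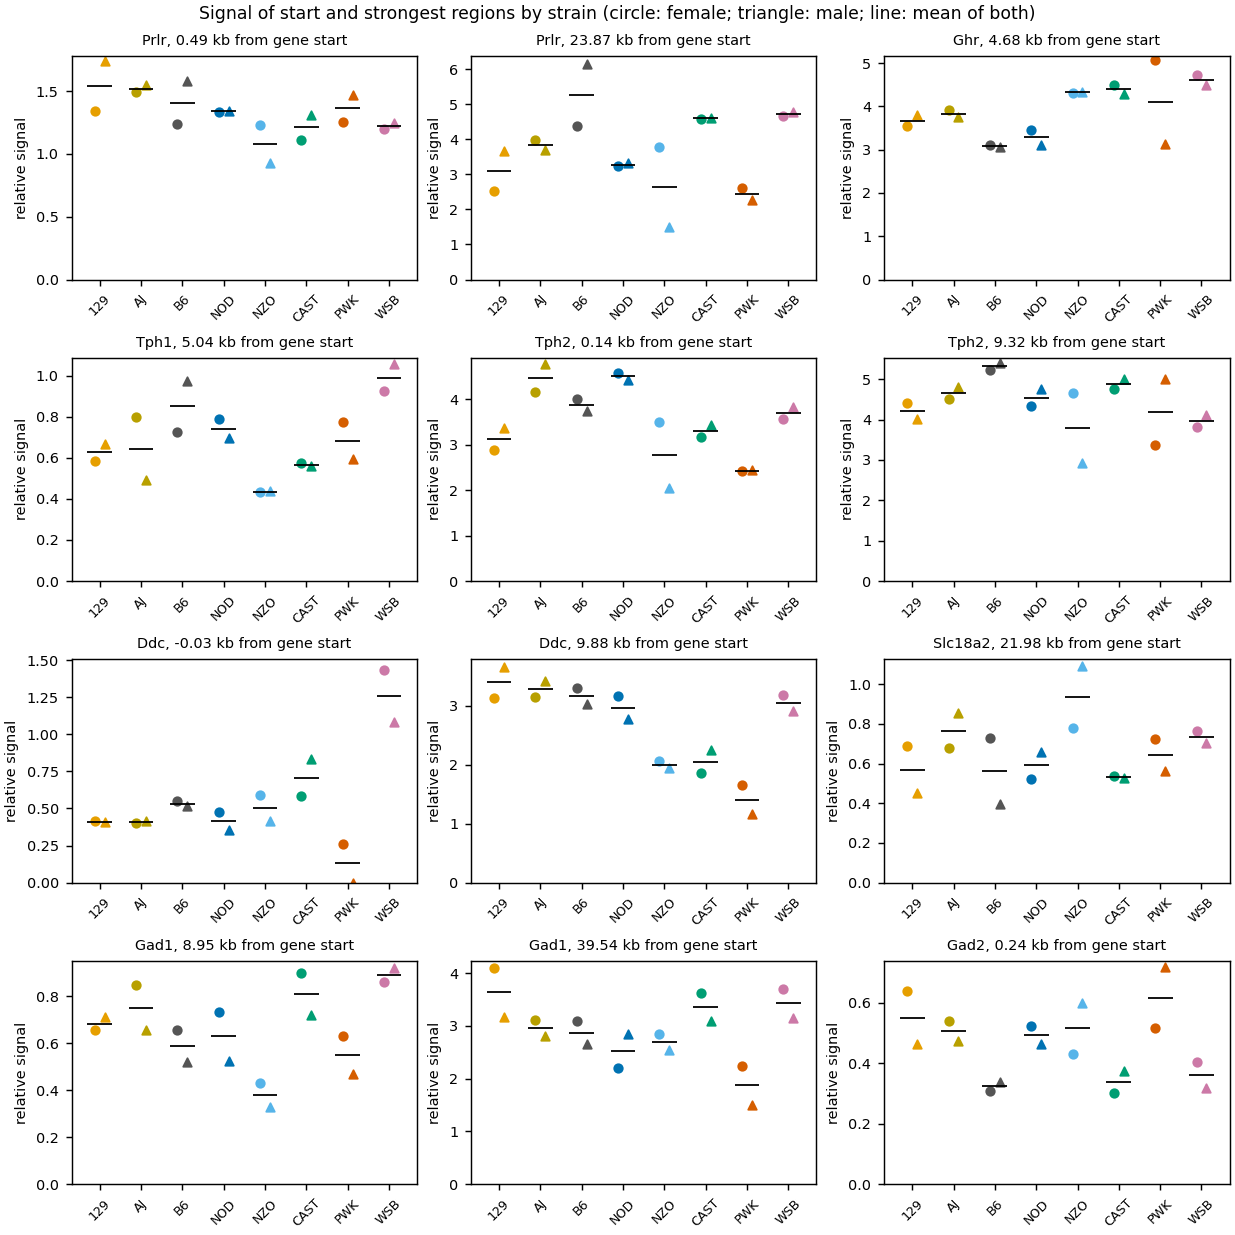
Relative signal (vertical axis, unitless, from 0) by strain (horizontal axis) in 12 start and strongest regions of the 8 genes, with circles for females, triangles for males and a line at the mean of both. In the Ddc panel at 9.88 kb, PWK, NZO and CAST lie below all other samples, and in the Ddc panel at the gene start WSB lies above all others.

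In the serotonin genes, the gene of the neuronal hydroxylase, Tph2, had the highest single region of the 8 genes, and the gene of the peripheral one, Tph1, had 1 region shared by all samples. The Tph2 start (chr10:115184207-115185310) had a mean relative signal of 3.52, above 71.9% of the shared coding promoters. The values were 2.88 and 3.36 in 129, 4.17 and 4.78 in AJ, 4.00 and 3.75 in B6, 4.58 and 4.43 in NOD, 3.49 and 2.05 in NZO, 3.18 and 3.43 in CAST, 2.42 and 2.44 in PWK, and 3.57 and 3.83 in WSB, female first. NOD and AJ were highest and PWK lowest, a ratio of 1.85 by strain mean, and the adjusted p over strains was 0.0789, or 0.00816 without the NZO female and 0.0328 without the NZO male. The Tph2 start passed with no centring (adjusted p over strains 0.0142), a pseudocount of 8 (0.0490) and an intensity trend (0.0277). The region 9.32 kb inside the gene (chr10:115174994-115178645) was stronger, with a mean of 4.45 between 2.93 in the NZO male and 5.41 in the B6 male. It varied least by strain of the 43 shared regions (ratio 1.40, adjusted p 0.616). It passed with no centring (0.0253), where 63.2% of all shared regions did.

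Of the 6 shared Tph2 regions, the one at 77.0 kb (chr10:115107496-115108780, intron) passed the strain test. Its values were 3.61 and 2.94 in WSB, 2.14 and 2.29 in B6, 1.94 and 2.09 in AJ, 1.66 and 1.89 in NOD, 1.76 and 1.62 in PWK, 1.46 and 1.74 in CAST, 0.741 and 1.28 in 129, and 1.21 and 0.727 in NZO. Both WSB samples were above the other 14, and all 4 samples of 129 and NZO were below the rest (adjusted p 0.00711). WSB was higher than the other strains by 1.09 ± 0.23 (log2, SE, adjusted p 0.0143), and NZO was lower (-0.95 ± 0.23, adjusted p 0.0346). With 1 of its samples left out, WSB had an adjusted p of 0.355 (female) or 0.160 (male), and NZO lost its call in 8 of 16 such fits (either sample of NOD, CAST or WSB, the AJ male or the NZO male), the adjusted p reaching 0.501 without the NZO male. The call over strains held when any 1 of the 16 samples was left out and under each of the 11 other settings.

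Tph1, the hydroxylase gene of peripheral tissues, had 1 shared region, at the inner start shown above (chr7:46667257-46667907). Its mean was 0.693, above 7.14% of the shared coding promoters, and the samples ran from 0.432 in the NZO female to 1.06 in the WSB male. WSB and B6 were highest by strain mean and NZO was lowest with 0.432 and 0.436, and the adjusted p over strains was 0.0651 (0.0468 without the AJ female). Under 4 other settings the shared region passed the strain test, and under 7 it did not. It passed with no centring (adjusted p 0.0193), the second deposited signal (0.0498), the better peaks by p (0.0489) and equal peak numbers (0.0482). The other 4 Tph1 regions were listed in at most 5 samples each, with no value above 0.396 in those at 7.15 and 9.22 kb. The levels of Tph1 and Tph2 are summit signals and not RNA, and they are not scaled to the length of a region.

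In Ddc, the decarboxylase gene, 5 of the 10 shared regions passed the strain test, beside the background of 35.7%. The other 5 calls were spread over Ghr, Tph2 and Gad1. The gene start itself (chr11:11896617-11899999) was listed in 15 samples and so was not fitted. Its values were 1.43 and 1.08 in WSB, 0.585 and 0.831 in CAST, from 0.354 to 0.593 in all 10 classical samples, 0.258 in the PWK female and 0 in the PWK male, so WSB lay above and PWK below all others.

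The region around the inner RefSeq start of Ddc, 7.74 kb into the gene, was 9.42 kb wide (chr11:11881620-11891039) and overlapped the gene 1700042O10Rik. Its values were 3.14 and 3.67 in 129, 3.15 and 3.42 in AJ, 3.30 and 3.04 in B6, 3.16 and 2.77 in NOD, 3.19 and 2.91 in WSB, 2.06 and 1.95 in NZO, 1.87 and 2.24 in CAST, and 1.66 and 1.16 in PWK. The strains thus fell into a group of 5 with every sample at 2.77 or above and a group of 3 with every sample at 2.24 or below (adjusted p over strains 0.00867). PWK differed from the other strains by -1.0 ± 0.18 (log2, SE, adjusted p 0.00353), and by -0.74 with an adjusted p of 0.0903 without the PWK male. With the sum of all peaks in the region in place of the highest, the adjusted p over strains was 0.123, and with the second deposited signal it was 0.272. The PWK difference was -0.44 and -0.32 (log2) under these settings.

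The other 4 called Ddc regions did not share 1 order of strains. At 77.7 kb (chr11:11820004-11821150) both PWK samples, at 0.790 and 0.906, were below the other 14, which ran from 1.31 to 1.91 (adjusted p 0.0258). PWK differed from the other strains there by -0.93 ± 0.17 (log2, SE, limma adjusted p 0.00307). That PWK call held under each of the 11 other settings, and with single samples left out the difference ran from -0.97 to -0.88. At 72.2 kb (chr11:11825022-11827358) 129 was lowest with 0.899 ± 0.14 (SD, n = 2) and WSB highest with 3.40 ± 0.075 (adjusted p 0.0243). At 53.5 kb (chr11:11844000-11845875, overlapping an exon) 129 was again lowest with 1.75 ± 0.30 and WSB highest with 5.54 ± 0.17 (adjusted p 0.0349). At 48.3 kb (chr11:11848400-11852399) WSB had 4.33 ± 0.40 and the other strains from 1.13 ± 0.36 in PWK to 2.42 ± 0.60 in AJ (adjusted p 0.0256). With the second deposited signal, the call over strains was lost at 77.7, 53.5 and 48.3 kb (adjusted p 0.121, 0.205 and 0.0706). With regions listed in 12 or more samples fitted, it was lost at 72.2, 53.5 and 48.3 kb (0.105, 0.115 and 0.114). All 4 calls over strains were also lost when single samples were left out. This held at 77.7 kb for either sample of AJ, NOD, CAST, PWK or WSB (adjusted p up to 0.108), and at 72.2 kb for either of 129, CAST or WSB (up to 0.0901). It held at 53.5 kb for either of 129, NOD, CAST or WSB (up to 0.123), and at 48.3 kb for the PWK male or either WSB sample (up to 0.106). A weaker region at 76.0 kb (chr11:11821825-11823328) was listed in all 14 samples outside PWK, at 0.243 to 0.477, and in neither PWK sample.

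Slc18a2, the vesicle transporter gene, had no region at its start in any sample, as was the case within 3 kb of the start for 15.8% of 20780 protein-coding genes. Its 1 shared region lay in an intron at 22 kb (chr19:59282629-59283133). The values had a lowest sample of 0.398 in the B6 male, a median of 0.683 and a highest of 1.09 in the NZO male, and all 7 pairs of neighbours in the order of strains overlapped (adjusted p 0.293). The strain lists had a peak there in all 8 strains.

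In the GABA genes, the strongest site lay near the far end of Gad1. The intron region at 39.5 kb (chr2:70591583-70593199) had a mean of 2.92. Its values were 4.1 and 3.17 in 129, 3.11 and 2.80 in AJ, 3.08 and 2.66 in B6, 2.20 and 2.85 in NOD, 2.84 and 2.55 in NZO, 3.61 and 3.09 in CAST, 2.24 and 1.5 in PWK, and 3.70 and 3.15 in WSB. Neighbours in the order of strains all overlapped and the strain test gave an adjusted p of 0.0737. The region passed this test with no centring (0.00878), a pseudocount of 8 (0.0461) and an intensity trend (0.0309), and without the NZO female. PWK against the other strains gave -0.73 ± 0.19 (log2, SE, adjusted p 0.0243, 0.272 without the PWK male).

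The region over the RefSeq start of Gad1 (chr2:70560982-70566282), which lies 9.06 kb inside the GENCODE gene and overlaps the antisense gene Gad1os, was weaker, with a mean of 0.659. NZO was lowest with 0.432 and 0.327 and WSB highest with 0.858 and 0.920 (adjusted p over strains 0.0238), and NZO differed from the other strains by -0.84 ± 0.18 (log2, SE, adjusted p 0.0210). The call over strains was lost without the CAST female (0.0681), the CAST male (0.0636) or the WSB male (0.0736), and that of NZO without the NZO male (0.213). At 45.6 kb (chr2:70598219-70599112, intron) NZO was again lowest with 0.543 and 0.509 and WSB highest with 1.70 and 1.52 (adjusted p 0.0122). Both WSB samples there lay above the other 14, by 0.98 ± 0.20 (log2, SE, adjusted p 0.0117). Without the WSB female the adjusted p was 0.0686 over strains and 0.303 for WSB, and without the WSB male it was 0.190 for WSB. Thus 2 of 4 shared Gad1 regions passed the strain test. With the second deposited signal both calls were lost (adjusted p over strains 0.0646 at the RefSeq start and 0.0662 at 45.6 kb). The call at the RefSeq start was also lost with regions listed in 12 or more samples (0.0522).

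Gad2, whose product is the islet autoantigen GAD65, had 1 shared region, over its start (chr2:22620976-22623787), with a mean of 0.463, above 1.49% of the shared coding promoters. The samples ran from 0.302 in the CAST female to 0.719 in the PWK male (adjusted p over strains 0.0790, 0.0323 without the NZO female). Its other 11 regions were listed in at most 13 samples.

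**Figure D3:**
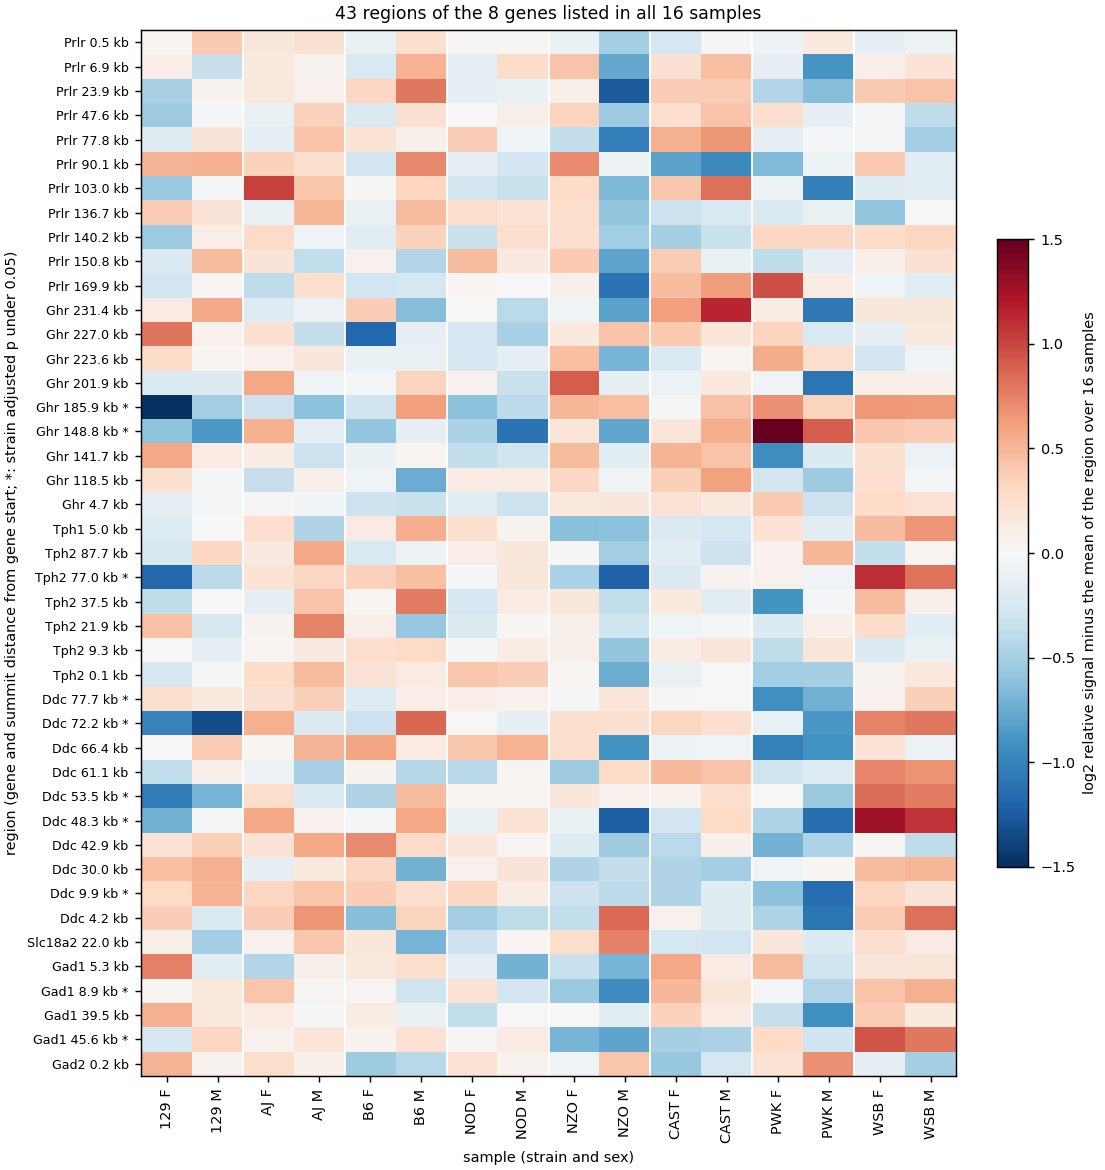
Log2 relative signal of the 43 shared regions (rows, by gene and summit distance in kb) in the 16 samples (columns, by strain and sex), minus the mean of the row, with red for higher and blue for lower, and a star for a strain adjusted p under 0.05. The 10 starred regions lie in Ghr, Tph2, Ddc and Gad1, and no Prlr row is starred.

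Together, 10 of the 43 shared regions (23.3%) passed the strain test, beside 35.7% of all shared regions. Among the 9732 distinct regions that served as promoters of coding genes, 22.1% passed. By single strains against the mean of the other 7, there were 18 calls in 15 of the 43 regions, 7 higher and 11 lower. PWK had 5 calls, 1 higher and 4 lower, where 11.1% of all shared regions were called, and WSB 4, all higher, where 5.81% were. 129 and NZO had 3 calls each, all lower, with 3.09% and 5.19% of all shared regions called. CAST had 3 calls, with 20.6% of all shared regions called. The CAST calls were the Ghr region at 231 kb, higher, and a pair of Prlr regions named after their values were seen, at 77.8 kb (higher, 2.14 ± 0.14, SD, n = 2) and at 90.1 kb (lower, 0.250 ± 0.020). The calls at 231 and 90.1 kb were lost when either CAST sample was left out (adjusted p up to 0.478 and 0.225), and the one at 77.8 kb in 12 of 16 fits with a sample left out (up to 0.383 without the CAST male). With the second deposited signal the difference at 77.8 kb had the opposite sign (-0.13, log2). AJ, B6 and NOD had 0 calls in limma, where 6.81%, 3.13% and 3.02% of all shared regions were called. At an unadjusted p under 0.05 they had 3, 5 and 3 of the 43 regions, beside 28.8%, 17.4% and 20.2% of all shared regions.

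Females and males were compared within strains. Of the 43 regions, 0 passed in limma and 0 had an unadjusted p under 0.05, and over all shared regions 0% passed and 1621 had an unadjusted p under 0.05. The female minus male difference was above 0 in 28 of 43 regions with a median of 0.06 (log2), from -0.23 to 0.29. These samples thus showed no sex difference in the 8 genes that passed the test, with 8 samples of each sex. Wild-derived and classical strains, compared on the 8 strain means, also gave 0 calls of 43, where 0.0342% of all shared regions passed. In that comparison 3 of the 43 had an unadjusted p under 0.05, beside 12.1% of all shared regions. The largest class difference among the named regions was that of Ghr at 149 kb, with wild-derived higher by 1.02 ± 0.29 (log2, SE, adjusted p 0.208).

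Regions listed by strain gave a second view, with no test. Of the 259 regions, 17 were listed in both samples of some strains and in neither sample of the others, which is 6.56%, beside 7.46% of all regions. CAST alone listed 8 of these (3.09% of the 259, beside 1.80% of all regions), WSB alone 3 (1.16%, beside 1.01%) and PWK alone 1 (0.386%, beside 0.974%). No single classical strain listed one, and over all regions the share of a single classical strain ran from 0.0523% in 129 to 0.322% in NZO. The lists of these 3 strains were also long, and their samples listed from 39.0% to 61.4% of the 259 regions and from 32.3% to 46.3% of all regions. The classical samples listed from 20.5% to 39.8% of the 259 and from 20.5% to 37.9% of all regions.

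The GABA genes, with 16 regions in Gad1 and 12 in Gad2 of the 259, held 5 of the 8 CAST regions. Whether this exceeds their share was not tested. The strongest, in a Gad2 intron at 32.2 kb and overlapping the microRNA gene Mir3967 (chr2:22654083-22654871), had relative signals of 0.840 and 1.01 in CAST and no peak in the other 14 samples, and ranked above 80.4% and 83.0% of the regions of these CAST samples. In Gad1, regions at 25.6 kb (chr2:70578593-70578862) and 28.4 kb (chr2:70581420-70581690) had 0.425 and 0.419, and 0.245 and 0.346, in CAST alone. These 3 regions were also in the CAST strain list. The remaining CAST regions, 3 in Ghr and a further 2 in Gad1, were weaker, with means of 0.0876 to 0.171, and were in no strain list. A Gad2 region at 62.7 kb (chr2:22684673-22684999) was listed in all 6 samples of CAST, PWK and WSB and in none of the 10 classical samples, at 0.151 to 0.355.

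**Figure D4:**
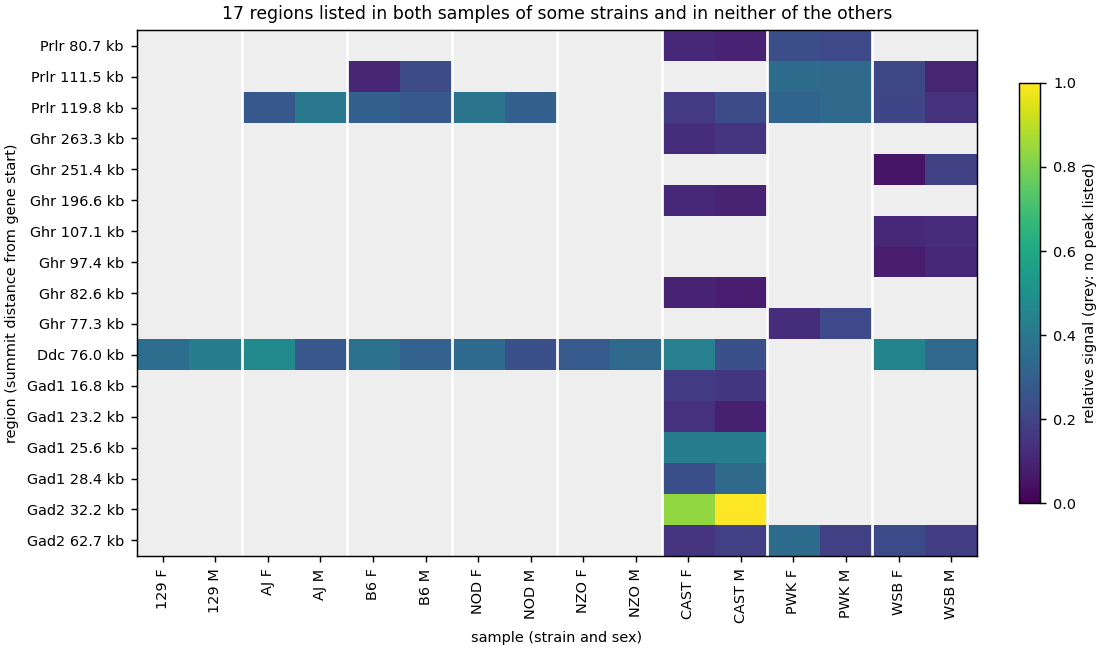
Relative signal (colour, from 0 to 1, grey where no peak was listed) in the 16 samples (columns) of the 17 regions (rows, by gene and summit distance in kb) that were listed in both samples of some strains and in neither of the others. The Gad2 row at 32.2 kb is filled in CAST alone and is the brightest, and the Ddc row at 76.0 kb is empty in PWK alone.

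The promoter regions of other genes of the 3 systems were counted for context. Of 18 genes of lactogen and growth hormone signalling, 13 had a promoter region in all samples and 1 passed the strain test. Of 24 serotonin genes, 9 had one and 4 passed, and 4 lay outside chromosomes 1 to 19 and were not assessed. Of 27 GABA genes, 14 had one and 3 passed, where Gabra4 and Gabrb1 share a region, and 2 were not assessed for the same reason. Of the 20780 coding genes on these chromosomes, 53.5% had a promoter region in all samples, and 22.1% of those distinct regions passed the strain test. No list had a gene that passed for sex or for strain class. Among the genes by smallest strain p, Gabrg1 and Gabra2, which encode GABA-A receptor subunits, were lowest in CAST (1.93 ± 0.24 and 0.388 ± 0.055, SD, n = 2) and highest in NOD (5.03 ± 0.63 and 1.36 ± 0.30), with adjusted p of 0.00283 and 0.0181.

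Qdpr encodes the reductase that regenerates the tetrahydrobiopterin cofactor of the tryptophan hydroxylases. Its promoter had the highest level of the 3 lists, from 11.1 to 26.6, lowest in WSB (11.9 ± 0.11, SD, n = 2) and highest in AJ (24.9 ± 2.5, adjusted p 0.0196). The serotonin receptor gene Htr2a was lowest in WSB (0.597 ± 0.17) and highest in PWK (1.77 ± 0.32, adjusted p 0.0228). Slc18a1 (VMAT1), the other vesicle transporter of amines, had a promoter region of 2.49 to 3.95 in all samples, beside none for Slc18a2.

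As a description without a test, the strain means of each gene's strongest shared region were compared with those of 11113 other coding promoters over the 8 strains. The most alike was Psg16 for Prlr (Pearson r 0.891), Il17rc for Ghr (0.959), Dnaaf3 for Tph1 (0.915), Leng1 for Tph2 (0.913), Mia2 for Ddc (0.959), Desi2 for Slc18a2 (0.895), Camk2b for Gad1 (0.962) and Ugt8a for Gad2 (0.971). With 8 points and this many promoters high values arise readily, and for Gad2 43 promoters exceeded 0.9.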

How the data were processed

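ATAC-seq peak lists of islets, about 50 islets per sample in the protocol of the labels, were used from 8 strains, 1 female and 1 male each. According to the submitters' processing notes and the study's methods, the authors used cutadapt 2.0 to trim reads, Bowtie2 2.3.4.1 to align them to mm10, SAMtools and Picard 2.9.2 to filter, and MOSAiCS (FDR 0.05) to call peaks per sample. The lists used here rest on reads of every strain placed on the C57BL/6J genome. Alignments to genomes of the single strains, which the study also made, were not used here. A shift of read ends for the transposase was not stated. The deposited signal of a sample peak is a whole number at its summit with no scaling to depth, and a second deposited signal, whose meaning is not stated, served as an alternative. The deposited −log10 p-value ranked peaks for stricter lists, and the deposited −log10 irreproducible discovery rate selected peaks of the strain lists at 0.05.

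Regions were merged peaks on chromosomes 1 to 19, and the highest summit in a region was the value of a sample. Values log2(signal + 1) of the 40940 regions listed in every sample were centred on the median of each sample and fitted with limma 3.58.1 (R 4.3.3) on strain and sex, or on strain means for class, with Benjamini-Hochberg adjustment over all regions at 0.05. The script was tested on simulated data. Regions below 16 samples had no fit, so low regions are under-represented among those tested. No batch is given in the labels, and no libraries were duplicates. Named regions were, per gene, the start region within 3 kb, the 3 highest, up to 4 with the smallest strain adjusted p under 0.05 and up to 2 listed in both samples of some strains alone. From the lists, up to 6 pathway genes with the smallest strain p were taken, of which some are not reported here, and a transporter, Slc18a1, was added after its values were seen. The members and the gene lists were chosen with earlier results of these data known. Sequences came from RefSeq and the GRCm38.p6 genome, and all 8 genes matched. Alternatives were no centring, the second signal, summed peaks, pseudocounts of 0.5 and 8, regions in 12 or more samples, chromosome X included, the better peaks of each list by p (above its median), equal peak numbers, an intensity trend, no sex term and each sample left out.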

Additional observations from a re-analysis of the deposited data

Results flagged for a closer look

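A total of 66 groups of values were examined (females, males and classical strain means of 22 named shared regions). Of these, 9 held a sample or strain far from the rest. For regions not chosen by their values, chance gives about 1 in 20. Some of these regions were named for a small strain adjusted p, so the count cannot be compared with that rate. In Prlr at 103 kb the AJ female had 4.54, with the next female at 2.94. In Ghr at 149 kb the PWK female had 1.47, with the next female at 0.723. In Ddc at 77.7 kb the PWK female (0.790) and the PWK male (0.906) were each far below the other samples of their sex, whose lowest values were 1.31 and 1.5. In Ddc at 53.5 kb the 129 mean of 1.75 was far below the other classical strains, which began at 3.27. In Gad1 at 39.5 kb the PWK male had 1.5, with the next male at 2.55. In Gad1 at 45.6 kb the WSB female had 1.70, with the next female at 1.08, and the NZO mean of 0.526 was below the next classical mean of 0.921. In Gad2 at its start the B6 mean of 0.323 was below the next classical mean of 0.493. The PWK male also had the lowest median signal over shared regions, 32. The interaction of sex with strain class was called in 0 of the 43 regions in limma (smallest adjusted p 1.00, 0 at an unadjusted p under 0.05).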

How the results depend on the processing

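The count of 10 regions that differed between strains (23.3% of 43, beside 35.7% of all regions tested) became 29 with no centring (67.4%, beside 63.2%) and 6 with the second signal (14.0%, beside 27.8%). It lay within 1.5 times under the other 9 settings, of which 3 tested another number of regions of the 8 genes: 9 of 23 passed with the better peaks by p (39.1%, beside 35.4%), 9 of 32 with equal peak numbers (28.1%, beside 35.1%) and 8 of 58 with regions in 12 or more samples (13.8%, beside 18.3%). With each sample left out in turn it ran from 5 to 22, 22 without the NZO female (51.2%, beside 60.1% of all regions), 16 without the NZO male (37.2%, beside 46.2%), 6 with either CAST sample left out (14.0%, beside 18.7% and 19.2%) and 5 with either WSB sample left out (11.6%, beside 23.2% and 22.7%). The 18 single-strain calls became 58 with no centring, and from 8 to 42 with a sample left out: 42 without the NZO female, 11 without the NOD male, 10 and 9 without the CAST female or male, and 9 and 8 without the WSB female or male. The count for sex was 0 under the 10 settings with a sex term and with each sample left out, and that for strain class was 0 under the 11 settings and with each sample or strain left out (0 to 0). The median number of the 259 regions listed per sample was 88, 46.5 with the better peaks of each list by p, 62 with equal peak numbers and 36 in the strain lists. The strain calls of Tph2 at 77.0 kb, Ghr at 149 and 186 kb and Ddc at 9.88 kb held with any sample left out, while Ghr at 186 kb had an adjusted p of 0.0656 with regions in 12 or more samples, and with the second signal Ddc at 9.88 kb had an adjusted p of 0.272 and Ghr at 149 kb of 0.0551. The difference of CAST in Prlr at 77.8 kb reversed with the second signal (-0.13, log2). The 18 single-strain calls stood beside 24037 over all regions, and the 58 with no centring beside 49749. The number over all regions also rose without the NZO female, and fell without the NOD male or either CAST or WSB sample. Where a count changed, the cause was not tested. The labels number no replicates, and the samples of the strains were matched by the sex term. Without it, 13 regions (30.2%, beside 39.4% of all regions) and 19 single-strain calls (26414 over all regions) passed. Each strain has 2 samples, and the read depth per sample was not analysed here.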
